A study of Mus musculus with 6 samples.

Results

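The genes described here are 34 interferon-stimulated genes that act outside antigen presentation: interferon regulatory factors, sensors of viral RNA, antiviral effectors and interferon-inducible GTPases, without the MHC class I genes. They were chosen by symbol from a fixed list and matched exactly to the gene symbols of the expression tables. All 34 were found among the 24346 symbols listed. Whole retina of wild-type mice (Unc119+/+, 3 libraries) was set against retina of mice with both copies of Unc119 disrupted (Unc119-/-, called knockout here, 3 libraries). No treatment is named for either genotype. The sources used here give no age, strain or allele. Nor do the labels say whether each library came from its own animal, so p-values here measure only how far these libraries scatter, which may be technical.

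Interferons are secreted proteins that cells release when they sense foreign or misplaced nucleic acid. Type I and type II interferons bind their own receptors, which act through JAK kinases and transcription factors of the STAT family. Complexes with IRF9 bind the interferon-stimulated response element, and STAT dimers bind the gamma-activated site. The genes so induced block steps of the viral life cycle, and in retina they are known to be expressed by microglia, glia and vessel cells. UNC119, the protein targeted in the knockout, carries lipid-modified proteins such as rod transducin in photoreceptors, and the study's title names JAK-STAT signalling.

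Expression is given as FPKM, fragment numbers scaled for the length of the transcript and the size of the library. Thus levels of different genes can be compared per length. The number of fragments behind a value is unknown. Relative depth, read from the steps between the lowest values, ran from 0.763 to 1 in wild type and from 0.931 to 0.964 in the knockout. Unc119 itself stood at 1187 to 1206 FPKM in wild type and at 449 to 510 FPKM in the knockout. All 14 retina markers, among them Sag and Gnat1 of rods, passed the filter described below. Lens RNA set knockout replicate 3 apart: the 17 lens markers summed to 1324 FPKM there and to 0.841 to 245.8 FPKM in the other libraries. By Xist and Y-linked genes, wild-type replicate 3 and knockout replicates 2 and 3 came from females and the other 3 libraries from males.

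Interferon-stimulated genes were mostly low in retina and stood higher in the knockout by small amounts. Bst2, which encodes tetherin, a surface protein that holds budding virus to the cell, rose, and it alone passed the test. Irf1, Ifitm3, Gbp2, Lgals3bp and Irf9 had every knockout library above every wild-type library without passing. Among the antiviral effectors other than Bst2 the log2 changes ran from −0.02 for Ifit3 and 0.05 for Ifit2 and Isg15 to 0.24 for Oasl2 and 0.81 for Ifitm3. None of these was called. Of the 34 members, 30 had a higher mean in the knockout and 4 a lower one, and the levels of only 12 averaged at least 2 FPKM.

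A mean of at least 0.5 FPKM over the 6 libraries was required for a test, which 25 members passed and 9 did not. The lowest that passed was Irf8 at a mean of 0.666 FPKM, and the highest that did not was Gbp5 at 0.403 FPKM. Changes are knockout minus wild type on the scale of log2(FPKM + 1), fitted by limma on all 14176 genes that passed, and a gene was called at an adjusted p under 0.05. One of the 25 members was called higher, against 0.205% of all genes tested, and none lower, against 0.0282%. At an unadjusted p under 0.05 there were 6 members higher (24% of the 25), against 5.19% of all genes, and none lower, against 3.81%. Every knockout library was above every wild-type library for 9 members (36%), against 7.83% of all genes, and none had the reverse, against 8.04%. Both held for 6 members, against 4.63% of all genes. The fitted change was above 0 for 23 of the 25 members, against 49.3% of all genes, and the median change was 0.22 for the members and 0.00 for all genes. Among the 6647 tested genes with means from 0.5 to below 10 FPKM, where 24 of the 25 members lie, those shares were 5.46% for the unadjusted p, 8.83% for separate genotypes and 54.9% for a change above 0. Within males the median change of the members was 0.18, and within females it was 0.25, each with 1 library on 1 side.

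**Figure D1:**
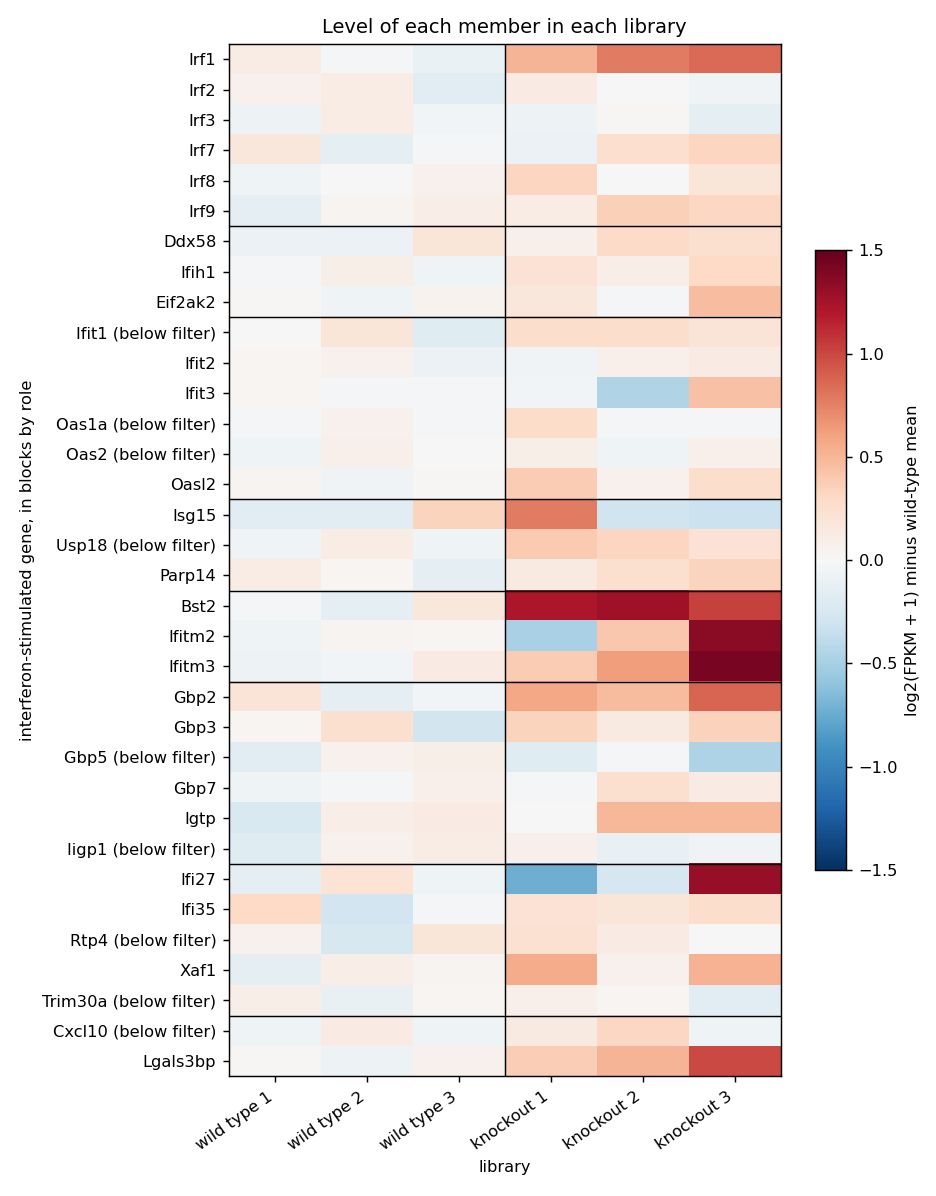
Heat map of the 34 members (rows, in blocks by role) in the 6 libraries (columns), coloured by log2(FPKM + 1) minus the wild-type mean of that gene. Red marks levels above the wild-type mean: Bst2 is red in all 3 knockout libraries, while Ifitm2 and Ifi27 are reddest in knockout replicate 3.

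**Figure D2:**
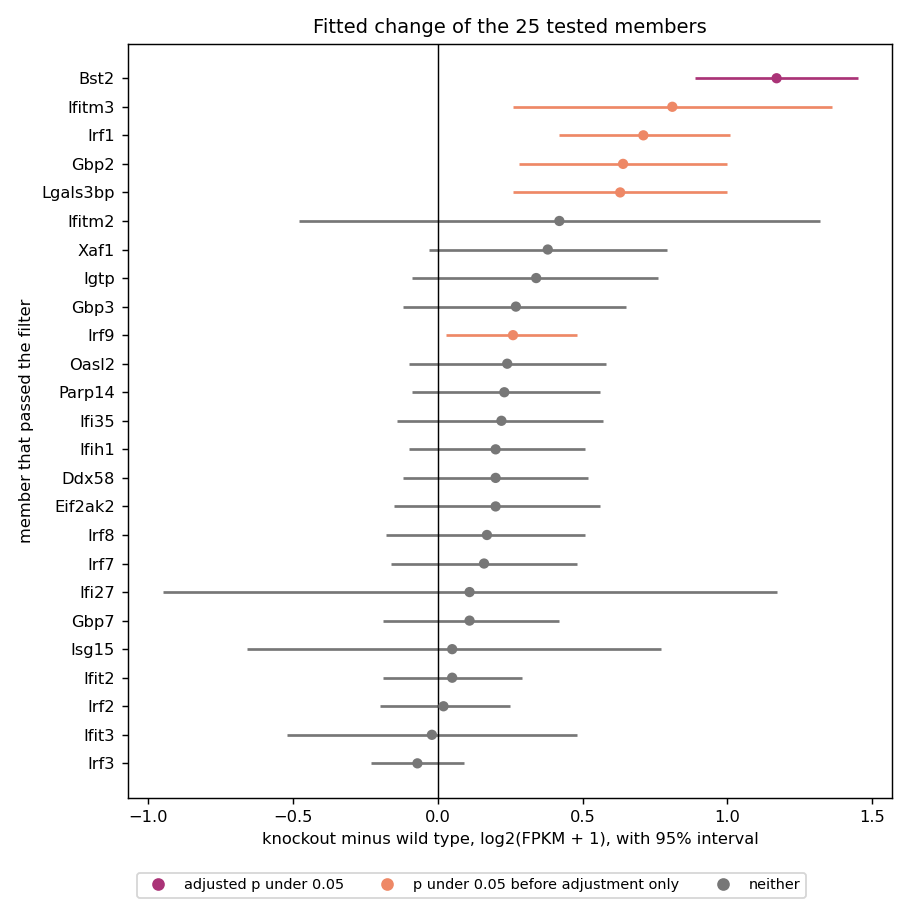
Fitted change of each of the 25 tested members on the log2(FPKM + 1) scale (horizontal axis, knockout minus wild type), with its 95% interval as a line. Intervals of 6 members lie above 0, from Irf9 at 0.26 to Bst2 at 1.17, and those of the other 19 span 0.

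The promoters of the members show which of them carry the 2 classical interferon motifs near their start. RefSeq windows of 300 bases, from 250 before the start to 50 after it on GRCm38.p6, were at hand for 28 of the 34 members. The interferon-stimulated response element core was searched as GAAA, any 2 bases and another GAAA, and the gamma-activated site as TTCNNNGAA, each on both strands. The first was found for 18 of the 28 members (64.3%), against 3.99% of all 27025 genes with a window. The second was found for 12 members (42.9%), against 9.55%, and 8 members had both. Matches are letters in a window and do not show binding. Among the tested members with a window, the median log2 change was 0.20 for the 13 with the response element core and 0.23 for the 10 without it. Of the 6 members whose genotypes did not overlap at an unadjusted p under 0.05, Bst2, Gbp2 and Ifitm3 held the core, Bst2, Irf1 and Ifitm3 the gamma-activated site, and Irf9 and Lgals3bp neither.

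The 250 bases before the start are shown for the 3 of these genes that have a match there, 5′ to 3′ on the strand of the gene, with the matches in capitals. In Bst2 (chr8:71537473-71537722, minus strand) 2 overlapping response element cores lie 130 to 115 bases before the start, and a gamma-activated site at 136 to 128 overlaps the first of them. In Irf1 (chr11:53769764-53770013, plus strand) the capitals are a gamma-activated site 90 to 82 bases before the start. In Gbp2 (chr3:142620413-142620662, plus strand) they are a response element core on the opposite strand, 59 to 50 bases before the start. That start is the one of RefSeq. The gene position given below begins earlier, at 142620602, and by it the core lies just inside Gbp2.
Bst2: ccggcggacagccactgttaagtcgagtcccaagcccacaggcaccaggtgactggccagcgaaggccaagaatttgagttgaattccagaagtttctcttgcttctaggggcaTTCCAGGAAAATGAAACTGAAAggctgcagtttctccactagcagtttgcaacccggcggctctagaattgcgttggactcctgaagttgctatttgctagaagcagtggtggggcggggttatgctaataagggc
Irf1: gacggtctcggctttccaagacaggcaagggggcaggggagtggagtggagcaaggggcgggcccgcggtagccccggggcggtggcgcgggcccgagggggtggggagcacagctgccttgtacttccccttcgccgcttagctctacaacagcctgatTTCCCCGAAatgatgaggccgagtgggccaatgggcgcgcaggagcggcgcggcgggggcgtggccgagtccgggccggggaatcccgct
Gbp2: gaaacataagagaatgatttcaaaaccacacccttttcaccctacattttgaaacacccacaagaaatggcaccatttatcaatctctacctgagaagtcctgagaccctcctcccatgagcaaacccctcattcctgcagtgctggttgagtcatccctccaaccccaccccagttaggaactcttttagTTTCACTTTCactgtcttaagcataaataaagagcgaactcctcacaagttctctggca

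Short sites are shown for 3 more members, since they hold several cores close together and yet differ in what was measured. Ifitm3 (chr7:141010716-141010742, minus strand) has 2 cores and an overlapping gamma-activated site 3 to 29 bases after its start. Isg15 (chr4:156200871-156200900, minus strand) has 3 overlapping cores 78 to 57 bases before its start, and Ifit1 (chr19:34640785-34640813, plus strand) has 2 on the opposite strand, 104 to 76 bases before it. Ifitm3 stood higher in each knockout library, Isg15 did not, and Ifit1 was below the filter, as described for each below.
Ifitm3: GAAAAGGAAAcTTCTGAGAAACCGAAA
Isg15: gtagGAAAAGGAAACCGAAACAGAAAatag
Ifit1: TTTCACTTTCcagtctcagTTTCAGTTTC

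Bst2 was the member with the clearest difference. Its level was 2.02, 1.77 and 2.47 FPKM in wild type, given here and below in the order of the replicate numbers, and 6.13, 6.40 and 5.26 FPKM in the knockout. Each knockout library was above the highest wild-type value, and the lowest of them was the library rich in lens RNA. The means were 2.09 ± 0.355 and 5.93 ± 0.592 FPKM (SD, n = 3 each), a ratio of 2.84. The log2 change was 1.17 (SE 0.12, 95% interval 0.89 to 1.45, limma adjusted p = 0.0116), and the exact two-sided permutation test gave 0.1, the smallest p that 3 against 3 allow. Bst2 (ENSMUSG00000046718.8) lies on chromosome 8 from 71534255 to 71537456 on the minus strand, and none of the 50-base windows of its transcripts occurs in another gene. Within males its difference was 1.30 and within females 0.97. The call was lost in some fits with 1 library left out and held in others. The limma adjusted p became 0.0807 and 0.0599 without wild-type replicates 1 and 2, and 0.0849 and 0.113 without knockout replicates 1 and 2. Without wild-type replicate 3 it was 0.0409, and without knockout replicate 3 it was 0.0328. With sex as a term the adjusted p was 0.0506, while the change stayed between 1.09 and 1.47 over all 14 alternatives.

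The other membrane restriction factors, Ifitm2 and Ifitm3, encode small proteins that hinder the fusion of viruses with endosomes. Ifitm3 measured 6.21, 6.42 and 7.28 FPKM in wild type and 8.95, 10.8 and 19.4 FPKM in the knockout. All 3 knockout libraries were above the wild-type libraries, and replicate 3 was far above the other 2. The log2 change was 0.81 (SE 0.24, adjusted p = 0.399), and without knockout replicate 3 it was 0.51. Ifitm2 measured 5.37, 5.86 and 5.82 FPKM in wild type and 3.76, 7.86 and 16.1 FPKM in the knockout, so the genotypes overlapped. Knockout replicate 1 was the lowest of all 6 libraries for Ifitm2 and replicate 3 the highest, and without replicate 3 the change went from 0.42 to −0.04. Both genes lie on chromosome 7, minus strand, Ifitm2 (ENSMUSG00000060591.9) at 140954837 to 140955987 and Ifitm3 (ENSMUSG00000025492.6) at 141009586 to 141010770. Of the 50-base windows of their transcripts, 48.5% of those of Ifitm2 and 10% of those of Ifitm3 occur in other genes, so the value of Ifitm2 in particular is uncertain.

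**Figure D3:**
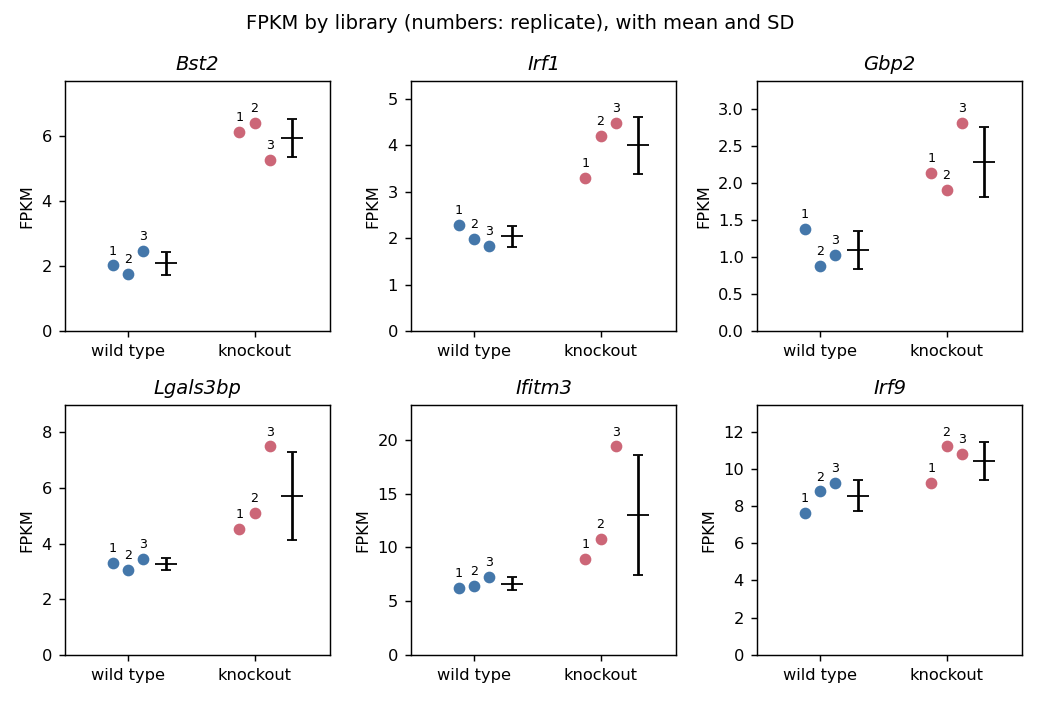
FPKM (vertical axes, from 0) of the 6 members whose genotypes did not overlap at an unadjusted p under 0.05, with 1 point per library numbered by replicate and the mean with SD beside each group. Bst2 separates the genotypes most clearly (1.77 to 2.47 against 5.26 to 6.40 FPKM), and Ifitm3 and Lgals3bp are highest in knockout replicate 3.

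Among the interferon regulatory factors, Irf1 stood highest relative to wild type. IRF1 is a transcription factor that interferon gamma and inflammatory cytokines induce. It measured 2.29, 1.99 and 1.84 FPKM in wild type and 3.31, 4.21 and 4.49 FPKM in the knockout. The genotypes did not overlap, and the knockout mean of 4.0 ± 0.614 FPKM was 1.96 times the wild-type mean of 2.04 ± 0.230 FPKM (SD, n = 3 each). The log2 change was 0.71 (SE 0.13, 95% interval 0.42 to 1.01). It did not pass after adjustment over all genes (limma adjusted p = 0.146), although its unadjusted p stayed under 0.05 in all 14 alternatives. Irf1 (ENSMUSG00000018899.16) lies on chromosome 11 from 53770014 to 53778374 on the plus strand.

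Irf9, which gives the STAT complex of type I interferon its DNA binding, measured 7.62, 8.78 and 9.23 FPKM in wild type and 9.26, 11.2 and 10.8 FPKM in the knockout. The lowest knockout library stood just above the highest wild-type library. The log2 change was 0.26 (SE 0.10, adjusted p = 0.519). Its unadjusted p was above 0.05 in 5 of the 14 alternatives, and reached 0.11. These were the sex term and the fits without 1 library, namely replicate 1 or 2 of wild type, or replicate 2 or 3 of the knockout. Irf9 (ENSMUSG00000002325.15, chromosome 14, 55603571 to 55610030, plus strand) shares exonic bases with Rnf31 on the same strand, so reads there cannot be told apart.

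The other 4 factors overlapped between genotypes. Irf3, the factor that RNA and DNA sensors activate to induce interferon, was the most abundant of all members. Its level ran from 24.5 to 28.2 FPKM in wild type and from 23.4 to 26.2 FPKM in the knockout (change −0.07 in log2, 95% interval −0.23 to 0.09). Irf2, a competitor of IRF1 for its sites, ran from 7.79 to 9.71 and from 8.54 to 9.80 FPKM (change 0.02 in log2, 95% interval −0.20 to 0.25). Irf7, the amplifier of type I interferon that is itself interferon-induced, ran from 3.98 to 5.23 FPKM in wild type and from 4.20 to 5.92 FPKM in the knockout (change 0.16 in log2, 95% interval −0.16 to 0.48). Irf8, a factor of the macrophage and microglial lineage, ran from 0.494 to 0.644 FPKM and from 0.556 to 0.956 FPKM. Its change was 0.17 (95% interval −0.18 to 0.51), and the microglial markers are given below.

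Sensors of viral RNA stayed near 1 FPKM. Ddx58, which encodes RIG-I, measured 0.963, 0.971 and 1.37 FPKM in wild type and 1.21, 1.55 and 1.47 FPKM in the knockout, with overlap. Ifih1, which encodes MDA5, a sensor of long double-stranded RNA, measured 0.828, 0.964 and 0.778 FPKM in wild type and 1.15, 0.980 and 1.29 FPKM in the knockout. Its genotypes did not overlap, though the gap between 0.964 and 0.980 FPKM was narrow. Eif2ak2, the RNA-activated kinase PKR that halts translation, ran from 1.21 to 1.39 and from 1.26 to 2.19 FPKM. The log2 change of each of the 3 was 0.20, and none had an unadjusted p under 0.05.

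Genes of the IFIT and OAS families, which bind viral RNA or make the messenger that activates RNase L, showed no called change. Ifit2 was the most abundant and the steadiest of them, at 3.44, 3.55 and 3.10 FPKM in wild type and 3.20, 3.6 and 3.76 FPKM in the knockout. Its log2 change was 0.05 (95% interval −0.19 to 0.29). Ifit3 measured 1.54, 1.46 and 1.46 FPKM in wild type and 1.41, 0.819 and 2.37 FPKM in the knockout, so the knockout libraries fell on both sides of wild type. Of the 50-base windows of Ifit3, 51.2% occur in its copy Ifit3b, so the pair is better read together. Their sum was 2.49 to 3.25 FPKM in wild type and 3.17, 3.18 and 5.15 FPKM in the knockout. Oasl2 measured 0.611, 0.509 and 0.580 FPKM in wild type and 1.04, 0.638 and 0.880 FPKM in the knockout, without overlap (change 0.24 in log2, 95% interval −0.10 to 0.58).

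The remaining 3 of the family were below the filter. Ifit1 measured 0.201, 0.358 and 0.0635 FPKM in wild type and 0.437, 0.439 and 0.371 FPKM in the knockout, without overlap. Its lowest values were in wild-type replicates 3 and 1, the libraries of least relative depth (0.805 and 0.763), and the part of depth in this was not tested. Oas1a and Oas2 did not exceed 0.237 FPKM in any library, and both were listed at 0 in some libraries of each genotype. Oas1a shares 57.6% of its 50-base windows with other genes, chiefly Oas1g.

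ISG15 is a ubiquitin-like protein that is coupled to other proteins in the interferon response, and USP18 removes it and dampens the type I receptor. Isg15 measured 0.883, 0.898 and 1.67 FPKM in wild type and 2.64, 0.724 and 0.699 FPKM in the knockout. The highest and the lowest libraries were both knockout libraries, and the sign of its change (0.05, 95% interval −0.66 to 0.77) was not stable. It was −0.31 without knockout replicate 1, −0.03 without wild-type replicate 1 or 2, and −0.01 with quantile normalization. Usp18 was below the filter, at 0.104, 0.238 and 0.0986 FPKM in wild type and 0.509, 0.426 and 0.329 FPKM in the knockout. All knockout libraries were above the wild-type libraries for Usp18, and fitted without the filter its change was 0.31 (SE 0.08, adjusted p = 0.466). Parp14, a mono-ADP-ribosyltransferase of macrophage and interferon signalling, ran from 0.592 to 0.902 FPKM in wild type and from 0.925 to 1.21 FPKM in the knockout, without overlap (change 0.23 in log2, 95% interval −0.09 to 0.56).

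Interferon-inducible GTPases attack the vacuoles of intracellular pathogens, and the guanylate-binding proteins among them also take part in inflammasome activation. Gbp2 measured 1.38, 0.884 and 1.03 FPKM in wild type and 2.13, 1.90 and 2.81 FPKM in the knockout. The genotypes did not overlap, and the means were 1.10 ± 0.252 and 2.28 ± 0.474 FPKM (SD, n = 3 each), a ratio of 2.08. The log2 change was 0.64 (SE 0.15, 95% interval 0.28 to 1.0, limma adjusted p = 0.284). Gbp2 (ENSMUSG00000028270.12, 142620602 to 142638008) lies in a row on the plus strand of chromosome 3 with Gbp5 (from 142493978), Gbp7 (from 142530342) and Gbp3 (from 142560026).

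For each of these neighbours the genotypes overlapped. Gbp3 ran from 0.640 to 1.35 FPKM in wild type and from 1.17 to 1.51 FPKM in the knockout, and Gbp7 from 1.06 to 1.26 and from 1.11 to 1.53 FPKM. Gbp5, below the filter, had a lower mean in the knockout. Its values were 0.347, 0.574 and 0.604 FPKM for wild type, against 0.330, 0.474 and 0.0916 FPKM. Knockout replicate 3 was far below the others for Gbp5, and fitted without the filter its change was −0.22 (adjusted p = 0.690). Whether the changes of Gbp2 and its neighbours differ from each other was not tested. Igtp, an immunity-related GTPase that overlaps Irgm2 on the same strand, measured 0.716, 1.16 and 1.19 FPKM in wild type and 1.02, 1.83 and 1.84 FPKM in the knockout (change 0.34 in log2, 95% interval −0.09 to 0.76). Iigp1, of the same family, stayed at or under 0.226 FPKM in every library.

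Lgals3bp, a secreted glycoprotein that binds galectins, measured 3.32, 3.04 and 3.46 FPKM in wild type and 4.53, 5.10 and 7.49 FPKM in the knockout. The genotypes did not overlap, and knockout replicate 3 was the highest. The log2 change was 0.63 (SE 0.16, 95% interval 0.26 to 1.0, adjusted p = 0.322), and 0.44 without knockout replicate 3. Lgals3bp (ENSMUSG00000033880.11) lies on chromosome 11 from 118392751 to 118402092 on the minus strand. The other secreted member, the chemokine gene Cxcl10 that draws T cells, was at 0 in 3 of 6 libraries and at most at 0.298 FPKM, in knockout replicate 2.

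Of the remaining interferon-stimulated members, Ifi27, a mitochondrial protein, differed most between the knockout libraries themselves. It measured 2.60, 3.62 and 2.83 FPKM in wild type and 1.41, 2.36 and 8.88 FPKM in the knockout. Replicates 1 and 2 were below every wild-type library and replicate 3 far above, and without replicate 3 the change went from 0.11 to −0.49. Ifi35 ran from 1.83 to 3.24 FPKM in wild type and from 2.89 to 3.12 FPKM in the knockout. Xaf1, a pro-apoptotic zinc finger protein, measured 0.408, 0.648 and 0.586 FPKM in wild type and 1.27, 0.614 and 1.22 FPKM in the knockout (change 0.38 in log2, 95% interval −0.03 to 0.79). Knockout replicate 2 lay within the wild-type range for Xaf1, and the other 2 lay above it. Rtp4 and Trim30a were below the filter, with highest values of 0.388 and 0.274 FPKM, and both overlapped between genotypes.

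In the order of mean FPKM, Irf3 stood alone at the top at 25.3 FPKM. Ifitm3 followed at 9.84, Irf9 at 9.47, Irf2 at 9.02 and Ifitm2 at 7.46 FPKM, and Oas2 at 0.0598 and Oas1a at 0.0518 FPKM closed the list. For 32 of the 33 pairs of neighbours in this order the ranges over the 6 libraries overlapped, so their order is not fixed by these data.

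Of the genes upstream of the members, none that was tested was called. Interferon genes themselves were near absent from the tables: 18 of the 21 listed were at 0 in every library, none passed the filter, and Ifnl3, Ifnk and Ifnz had a single value above 0 each, all in knockout libraries and at most 0.352 FPKM. Of 17 receptor and signalling genes 15 were tested, with 6 higher, 9 lower and none called (median log2 change 0.00). In 3 of the 15 every knockout library was the higher, against 7.83% of all genes. At an unadjusted p under 0.05 there were 2 higher, against 5.19%, and none was lower on either count. Socs3, a feedback inhibitor of cytokine receptors, measured 1.23, 1.38 and 1.23 FPKM and 2.0, 1.91 and 3.28 FPKM, without overlap (change 0.55 in log2, adjusted p = 0.420). Ptpn6, a phosphatase of blood-lineage cells, went from 0.445 ± 0.129 to 0.997 ± 0.467 FPKM (SD, n = 3 each). The kinase gene Jak1, the most abundant of the list, measured 43.0 ± 1.38 and 41.1 ± 0.513 FPKM (SD, n = 3 each). The receptor genes Ifnar1, Ifnar2, Ifngr1 and Ifngr2 overlapped between genotypes, with log2 changes of −0.04, −0.06, −0.01 and −0.02.

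Nucleic acid sensing genes outside the members were 9 tested of 17, with 5 higher, 4 lower and none called (median 0.01). Tlr3, an endosomal sensor of double-stranded RNA, ran from 0.988 to 1.2 FPKM in wild type and from 1.39 to 1.5 FPKM in the knockout (change 0.24 in log2, adjusted p = 0.610). Trim25, the ubiquitin ligase of RIG-I, ran from 6.87 to 8.54 and from 8.36 to 9.72 FPKM. Myd88, an adaptor of Toll-like receptors, ran from 3.80 to 4.02 FPKM and from 4.14 to 6.37 FPKM, and Tbk1, the kinase that activates IRF3, from 18.7 to 22.5 FPKM and from 18.6 to 21.1 FPKM. A further list held 50 interferon-stimulated genes that are not members, such as Mx1, Rsad2 and Irgm1. Of its 26 tested genes 21 were higher and 5 lower, the median was 0.16, and none was called. In 6 of the 26 every knockout library was the higher, which held for 7.83% of all genes. At an unadjusted p under 0.05 there were 2, against 5.19% of all genes: Ifitm1 and Psmb8, a subunit of the immunoproteasome. Ifitm1, of the same family as Ifitm3, measured 0.688, 2.63 and 0.979 FPKM in wild type and 4.49, 2.54 and 14.4 FPKM in the knockout, again with knockout replicate 3 highest. Irgm1, a regulator of the immunity-related GTPases, measured 1.45, 1.35 and 0.993 FPKM and 1.64, 2.31 and 1.66 FPKM (change 0.34 in log2, adjusted p = 0.562). Adar, the RNA-editing enzyme and the most abundant of the list, had a mean of 26.4 FPKM in both genotypes. Mx1, among the classical markers of type I interferon, had 1 value above 0, at 0.0533 FPKM in knockout replicate 1. The list of other IRF family and IRF2-binding genes had 4 tested, all higher and none called, with changes of 0.15 for Irf2bp1 and 0.21 for Irf5.

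Among the lists of microglial, vessel and glial markers, the microglial list had the largest median change. In whole retina, more cells of a type and more RNA per cell cannot be told apart. Of the 20 microglia and macrophage markers listed, 19 had a higher mean in the knockout. The 17 that were tested had a median log2 change of 0.40, and 1 was called higher, against 0.205% of all genes. At an unadjusted p under 0.05 there were 8 higher, against 5.19% of all genes, and 9 had every knockout library the higher, against 7.83%. The 20 markers summed to 50.8 to 57.9 FPKM in wild type and 74.0 to 86.3 FPKM in the knockout. Ctss, a lysosomal protease of microglia, rose from 10.5 ± 0.554 to 16.3 ± 1.01 FPKM (SD, n = 3 each, adjusted p = 0.0303). Among the defining markers, P2ry12 ran from 1.81 to 3.05 FPKM in wild type and from 2.43 to 2.94 FPKM in the knockout, and Cx3cr1 from 1.79 to 2.25 and from 2.32 to 2.60 FPKM. Tyrobp, an adaptor of myeloid receptors, ran from 2.24 to 3.40 and from 5.32 to 9.50 FPKM, and Lyz2, lysozyme, from 1.45 to 2.29 and from 2.96 to 5.47 FPKM. The part of microglia in the levels of the interferon-stimulated genes was not tested.

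Markers of lymphocytes and neutrophils gave little signal. None of the 16 listed passed the filter, 7 were at 0 in every library (among them Cd3e, Cd3g and Ms4a1), and they summed to 0.893 to 1.78 FPKM in wild type and 1.08 to 2.04 FPKM in the knockout. Vessel and pericyte markers had a median log2 change of 0.04 over 14 tested genes, 8 higher and 6 lower. They summed to 549 to 570 FPKM in wild type and 591 to 617 FPKM in the knockout. Most of this was Vtn, at 449 to 464 and 490 to 506 FPKM, so the sum does not stand for the list. Of the 14, only Vtn had every knockout library the higher, against 7.83% of all genes. Only Tie1 had every one the lower, against 8.04%. Cldn5 and Pecam1 overlapped between genotypes. Mueller glia and astrocyte markers had 7 higher and 4 lower of 11, with a median of 0.09. Their sums were 1977 to 2103 FPKM in wild type and 2103, 2153 and 2661 FPKM in the knockout, so replicate 3 stood apart. Every knockout library was the higher for 5 of the 11, against 7.83% of all genes. It was the lower for 2, Glul and Kcnj10, against 8.04%. In that list Gfap, the filament of reactive glia, rose from 7.96 ± 0.644 to 16.1 ± 0.929 FPKM (SD, n = 3 each, limma adjusted p = 0.00447). Glul went the other way, from 857 ± 31.6 to 793 ± 7.56 FPKM (SD, n = 3 each, limma adjusted p = 0.522). Kcnj10, Rlbp1 and Slc1a3 were also lower, and none of these was called.

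Across libraries the median of the 25 members relative to the wild-type mean was 0.18 in knockout replicates 1 and 2 and 0.33 in replicate 3. Over all genes tested the same median was −0.000, −0.002 and −0.004 in knockout replicates 1, 2 and 3. Each wild-type library lay between −0.02 and 0.01. These libraries make up the mean they are set against, so they lie near it by construction. Of the 25 members, 18, 19 and 22 were above the wild-type mean in knockout replicates 1, 2 and 3. The count was 11 to 13 in a wild-type library, which the centring largely sets. Knockout replicate 3 held the highest knockout value for 15 of the 25. It also had the most lens RNA. Its sum for the list of optic nerve, cornea and ciliary body was the highest, at 102 FPKM against 33.2 to 68.5 FPKM in the other libraries. Much of that sum was Aldh3a1 at 33.0 and Optc at 33.4 FPKM. By the median of the tested genes of this list, knockout replicate 3 was at 0.03, below replicate 1 at 0.21 and replicate 2 at 0.31. The cornea keratins Krt12 and Krt5 were highest in knockout replicate 1. The pigment epithelium list summed to 28.3, 51.3 and 55.5 FPKM in wild type and to 24.0, 87.2 and 115 FPKM in the knockout, also highest in replicate 3. By the median of its tested genes it was highest in knockout replicate 2, at 0.93 against 0.51 in replicate 3. Rpe65, Ttr, Rgr and Lrat were highest in replicate 2, and Tyrp1, Pmel and Dct in replicate 3. Without knockout replicate 3 the median over the members was 0.19 and Bst2 was still called (adjusted p = 0.0328). The part of other eye tissue in the levels of Ifitm3, Ifitm2, Ifi27 and Lgals3bp in that library was not tested.

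**Figure D4:**
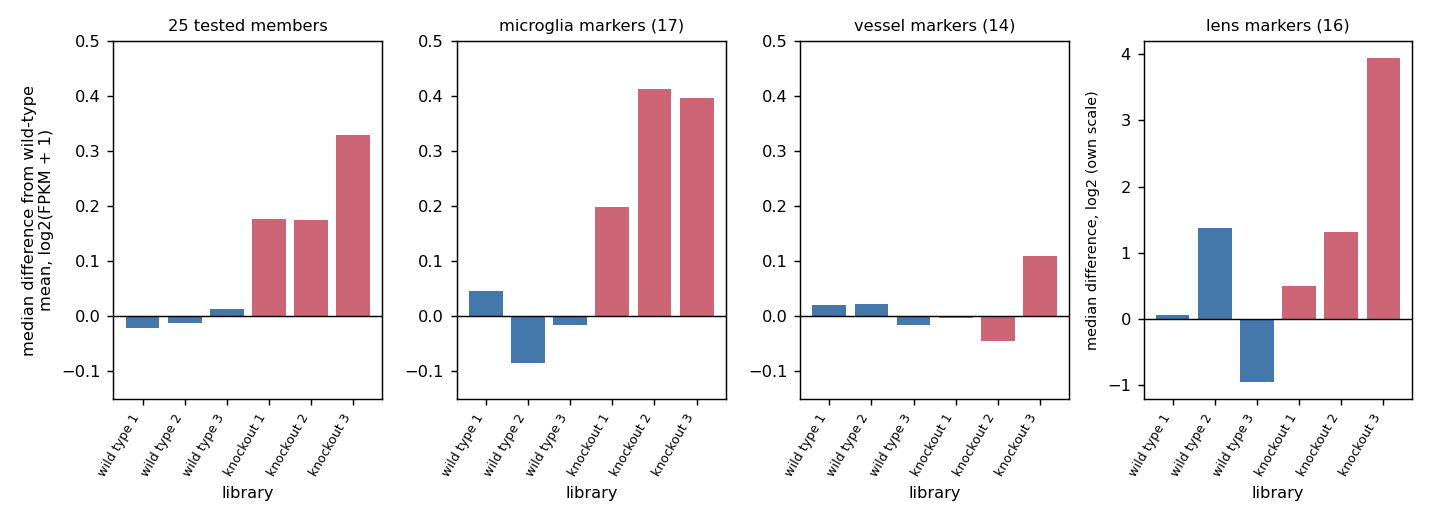
Median difference from the wild-type mean on the log2(FPKM + 1) scale in each library, for the 25 tested members and the markers of microglia, vessels and lens that passed the filter (the lens panel has its own scale). The members and the microglia markers are above 0 in each knockout library, and the lens markers are highest in knockout replicate 3.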

How the data were processed

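RNA of 6 retina libraries, 3 per genotype, was analysed. Per the labels, TRIzol was used for extraction and a stranded TruSeq kit for the mRNA libraries. For each library the authors deposited a table of FPKM by gene symbol (unit per the file headers). Per the submitters' processing notes, TopHat2 2.1.1, Cuffdiff 2.2.1 and the mm10 genome were used. Their annotation and strand setting: not given in the sources used here. FPKM are not counts, so limma 3.58.1 in R 4.3.3 was run on log2(FPKM + 1), with a prior variance following the mean, two-sided and with Benjamini-Hochberg adjustment over all genes with a mean of at least 0.5 FPKM. This scale understates changes of low genes. The fit was tested on simulated data. Python 3.11.15, pandas 2.3.3 and scipy 1.17.1 were used for tables and exact permutation tests. Gene positions come from GENCODE M21 and promoters from RefSeq, both on GRCm38, the assembly that mm10 names. Relative depth is the commonest ratio between libraries of genes at or under 0.3 FPKM.

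The members and gene lists were chosen with earlier results of these data known. The members described library by library are those called, or with an unadjusted p under 0.05 and genotypes that do not overlap, with the others given more briefly; of the other lists, called genes, up to 3 genes with the smallest p and the most abundant gene are named. Some genes that this rule would name are not reported here. Other genes named were chosen after their values were seen. The alternatives were a pseudocount of 0.1, no filter, a filter at 2 FPKM, median-of-ratios and quantile scaling, a replicate block, a sex term, library weights and leaving out each library.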

Additional observations from a re-analysis of the deposited data

How the results depend on the processing

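The median change over the tested members stayed above 0 in all alternatives. It was 0.35 with a pseudocount of 0.1, 0.14 with quantile normalization and 0.19 to 0.26 with 1 library left out. Of the members, 1 was called as reported, and none was called with the replicate block (Bst2 adjusted p = 0.0969) or a sex term, and leaving out 1 library left 0 to 1. Genes called among all tested went from 33 to 15 with the block, 19 with the sex term and 12 to 18 with 1 library left out. These fits have fewer residual degrees of freedom. Correlations did not show a pairing by replicate number, and with 3 libraries per genotype they cannot exclude one. Same-numbered libraries correlated at 0.072, −0.090 and −0.119 in their deviations from the group means. Wild-type replicate 1 correlated best with its own number, and wild-type replicates 2 and 3 with another number. Members with genotypes that do not overlap went from 9 to 5 with the filter at 2 FPKM, where only 12 members were tested. They went to 6 with quantile normalization, where all 25 were tested, and to 9 to 15 with 1 library left out, 15 without knockout replicate 1. Fewer libraries separate more readily, and the shares over all genes in these alternatives are not given here, so a higher count does not show a stronger difference. Members at an unadjusted p under 0.05 numbered 5 to 9 in all alternatives, against 6, with 5 to 8 when 1 library was left out. Of 337 values of single members under alternatives, 319 kept direction and side of the threshold. The 24 members not called as reported were called in no alternative, so the side of the threshold says little for them. The 6 values that lost the call were all of Bst2, which was called in 8 of its 14 alternatives. The sign changed for Ifit2 (−0.02) and Isg15 (−0.01) with quantile normalization, for Ifi27 with the sex term (−0.09) and library weights (−0.15), and, with 1 library left out, for Isg15 (−0.31 to 0.24), Irf2 (−0.07 to 0.08), Ifit3 (−0.25 to 0.20), Ifitm2 (−0.04 to 0.88) and Ifi27 (−0.49 to 0.53). The cause was not tested. Absolute depth is unknown, and 13 of the 25 tested members averaged under 2 FPKM, where few reads limit precision.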
